A study of Mus musculus with 17 samples.

Results

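The change that 2 h on OP9-Jag1 stroma made in Kit- cells was set against the change it made in Kit+ cells, gene by gene. The measure was the difference of differences, Kit-J minus Kit- minus the same difference between Kit+J and Kit+, taken for all 19937 genes with a probe set of their own. It used 11 of the 17 arrays of the series, chosen by their titles. Kit-J had 2 arrays, Kit- 3, Kit+J 3 and Kit+ 3. The study left out a further Kit-J sample on technical grounds. All cells came from pools of mouse aorta-gonad-mesonephros (AGM) regions dissected at E11.5, carried CD31 and lacked CD45 and Ter119. Kit-J and Kit+J cells were sorted once as a mixed CD31+ population and kept for 2 h on OP9 cells that overexpress the Notch ligand Jag1. They were then sorted again by Kit. The culture was in Iscoves medium with serum, IL3, SCF, IL6, IGF-1, basic FGF, VEGF, erythropoietin, monothioglycerol, heparin and pituitary extract. Kit- and Kit+ cells were sorted from fresh tissue, saw neither stroma nor this medium, and were hybridised in an earlier series. The mouse strain of the pools is not given in the sources used here. OP9 is a mouse bone marrow stromal line. Because the gate was set after culture, cells that crossed it on the stroma and cells that changed expression within a gate cannot be told apart. A shift between the earlier and the later arrays that is common to both gates cancels in this contrast, whereas one that differs between gates cannot be told apart from the culture effect. In the change within a single gate, cultured minus fresh, neither kind of shift cancels. The size, sign and calls of those changes therefore hold any such shift as well.

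The AGM holds the dorsal aorta, whose endothelium gives rise to the first haematopoietic stem cells. Endothelial cells there are mostly Kit-, and the haematopoietic clusters that bud from them carry the receptor Kit. The transition needs signals through Notch receptors, which are cleaved on contact with a ligand of the Jagged or Delta family and then act on genes through the DNA-binding protein RBPJ. Kdr (VEGF receptor), Kif1c (a kinesin motor) and Cryz (the quinone reductase zeta-crystallin) were the genes given with the contrast to mark it.

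Because the stroma presents a Notch ligand, the start-site windows of the 3 marking genes and of Hey2, a classic Notch target, are shown first. They are RefSeq promoters of build GRCm38.p6, from 250 bases before to 50 after the start, printed from 5′ to 3′ on the gene's strand. They lie at chr10:30842734-30843033 on the minus strand for Hey2, chr5:75978406-75978705 on the minus strand for Kdr, chr11:70700298-70700597 on the plus strand for Kif1c and chr3:154596461-154596760 on the plus strand for Cryz. Capitals mark the RBPJ letters GTGGGAA, on either strand, in the first 3 windows and the E-box CACGTG in the last.
Hey2: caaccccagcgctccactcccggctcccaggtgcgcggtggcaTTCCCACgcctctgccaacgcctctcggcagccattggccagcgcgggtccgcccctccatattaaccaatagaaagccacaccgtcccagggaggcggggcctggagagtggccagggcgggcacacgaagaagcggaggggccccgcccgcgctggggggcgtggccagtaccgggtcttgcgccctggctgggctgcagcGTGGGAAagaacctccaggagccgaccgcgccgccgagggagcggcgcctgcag
Kdr: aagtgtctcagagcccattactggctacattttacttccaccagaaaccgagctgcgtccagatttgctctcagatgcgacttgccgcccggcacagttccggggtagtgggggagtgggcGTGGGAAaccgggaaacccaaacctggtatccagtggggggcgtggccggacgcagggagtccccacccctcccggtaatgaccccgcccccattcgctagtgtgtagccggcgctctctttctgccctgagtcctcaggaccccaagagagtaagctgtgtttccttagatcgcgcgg
Kif1c: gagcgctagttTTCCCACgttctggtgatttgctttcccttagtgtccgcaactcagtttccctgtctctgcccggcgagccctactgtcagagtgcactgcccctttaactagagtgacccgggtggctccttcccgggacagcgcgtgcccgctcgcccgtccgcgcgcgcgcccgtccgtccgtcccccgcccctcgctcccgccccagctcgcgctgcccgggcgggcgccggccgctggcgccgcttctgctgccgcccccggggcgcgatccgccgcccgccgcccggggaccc
Cryz: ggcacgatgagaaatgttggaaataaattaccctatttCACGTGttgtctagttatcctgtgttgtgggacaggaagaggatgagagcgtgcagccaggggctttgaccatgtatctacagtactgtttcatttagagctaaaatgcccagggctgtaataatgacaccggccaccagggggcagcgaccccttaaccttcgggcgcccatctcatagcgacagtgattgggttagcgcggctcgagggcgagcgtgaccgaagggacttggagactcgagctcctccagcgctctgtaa
Hey2 held the RBPJ letters at bases 44 and 247 of its window, Kdr at base 122 and Kif1c at base 12. The E-box of Cryz stood at base 39, and its other annotated start had no match to the motifs searched. GTGGGAA stood in 12 of the 112 promoters of genes called lower in the contrast (10.7%), against 6.38% of all 32851 promoters of the table and 6.13% of those of the genes tested. CACGTG was in 5.36% of the promoters of genes called lower, against 7.15% of all and 8.24% of those tested. The ETS letters CCGGAAG were in 6.25%, against 8.86% of all and 12.1% of those tested, and the AP-1 letters TGANTCA in 8.04%, against 7.81% and 6.9%. A match is a run of letters in this window and no measured binding. Of the 116 genes called, 91 were in the table.

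Values are log2 signals made by the authors with RMA, so that a difference of 1 is a 2-fold change. Array medians lay between 5.22 and 5.38. Replicates of a group correlated at 0.956 in Kit-J, from 0.980 to 0.983 in Kit-, from 0.955 to 0.970 in Kit+J and from 0.979 to 0.981 in Kit+. For both Kit-J arrays, 1 line of the sample record names the opposite Kit population, while their titles, their sources and the study name the group used here. Kit itself read 9.08 and 8.50 on Kit-J, against 8.29, 8.21 and 8.13 on Kit-, while Kit+J stood at 9.93, 9.02 and 9.30, against 9.55, 9.44 and 9.54 on Kit+. The Kit-J arrays were thus above every Kit- array, and the first of them also above the lowest Kit+J array. The difference of differences of Kit was 0.67 (95% interval −0.16 to 1.50, limma adjusted p = 0.644), and Kit was not called. By Kit mRNA alone, the Kit-J arrays lay between the fresh groups. Ddx4, Cdh5 and Klhl4 put both Kit-J arrays apart from all Kit+J arrays and on the Kit- side of them. They were chosen after their values, given further on, were seen. Clec14a, Prdm14 and Pou5f1, also given further on, did not, as their Kit-J arrays overlapped those of Kit+J. Between Kit-J and Kit+J, 18 of 19937 genes (0.0903%) were called. A gene counts as called where its adjusted p is under 0.05 in 1 limma model of all 17 arrays, which takes the spread of Kit-J, known from 2 arrays, to be that of the remaining groups.

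The culture effect differed between the gates in 116 of 19937 genes (0.582%). Of these, 111 (0.557%) had a lower and 5 (0.0251%) a higher effect in Kit- than in Kit+ cells, and 1882 genes (9.44%) were under an unadjusted p of 0.05, 1086 lower (5.45%) and 796 higher (3.99%). The median over all genes was 0.07. Among the 111, the median difference was −2.07, made up of −2.04 in Kit- cells and 0.15 in Kit+ cells. In fresh Kit+ cells the 111 had a median signal of 5.43, against 5.52 over all genes. There 32 of the 111 (28.8%) were under 5, against 37.0% of all genes, and 37 were at 6 or above. A dim gene has little room to fall in Kit+ cells, and the part of this in the difference was not tested. Both Kit-J arrays lay below all Kit- arrays for each of the 111 (12.8% of all genes), and the Kit- change was the larger of the 2 in size for 107. Measured from the fresh mean of the own gate, both Kit-J arrays lay below all Kit+J arrays for each of the 111 (13.3% of all genes). The calls were made on these same differences, so nothing is read from either count. For 31 of them the Kit-J arrays fell within the range of the Kit+ and Kit+J arrays, against 44.6% of all genes. In Kit-J against Kit-, where 426 genes (2.14%) were called, 376 lower (1.89%) and 50 higher (0.251%), 103 of the 111 were among them, all lower. In Kit+J against Kit+, where 4 genes (0.0201%) were called, none of the 111 was among them, and 27 were at an unadjusted p under 0.05. In bulk arrays, fewer cells of a type and less RNA per cell cannot be told apart.

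Kdr, the main signalling receptor for VEGF in endothelium, showed this form in full. It stood at 5.11 and 6.38 on Kit-J, against 9.62, 9.83 and 9.64 on Kit-, while Kit+J read 4.81, 5.33 and 4.71, against 4.71, 5.08 and 4.63 on Kit+. The Kit-J arrays were far below Kit- and the second of them above all Kit+J and Kit+ arrays, while Kit+J and Kit+ overlapped. The difference of differences was −4.09 (SE 0.51, limma adjusted p = 0.00213). Nrp1, a co-receptor of VEGF and of semaphorins, had the smallest p together with Sema6a and Fzd4 (limma adjusted p = 0.000437 each). Nrp1 measured 6.08 and 6.61 on Kit-J, against 8.87, 8.91 and 8.72 on Kit-, while Kit+J gave 5.19, 5.47 and 4.89, against 4.76, 4.78 and 4.74 on Kit+. Its difference of differences was −2.91 (SE 0.29), and no 2 of its 4 groups overlapped.

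**Figure D1:**
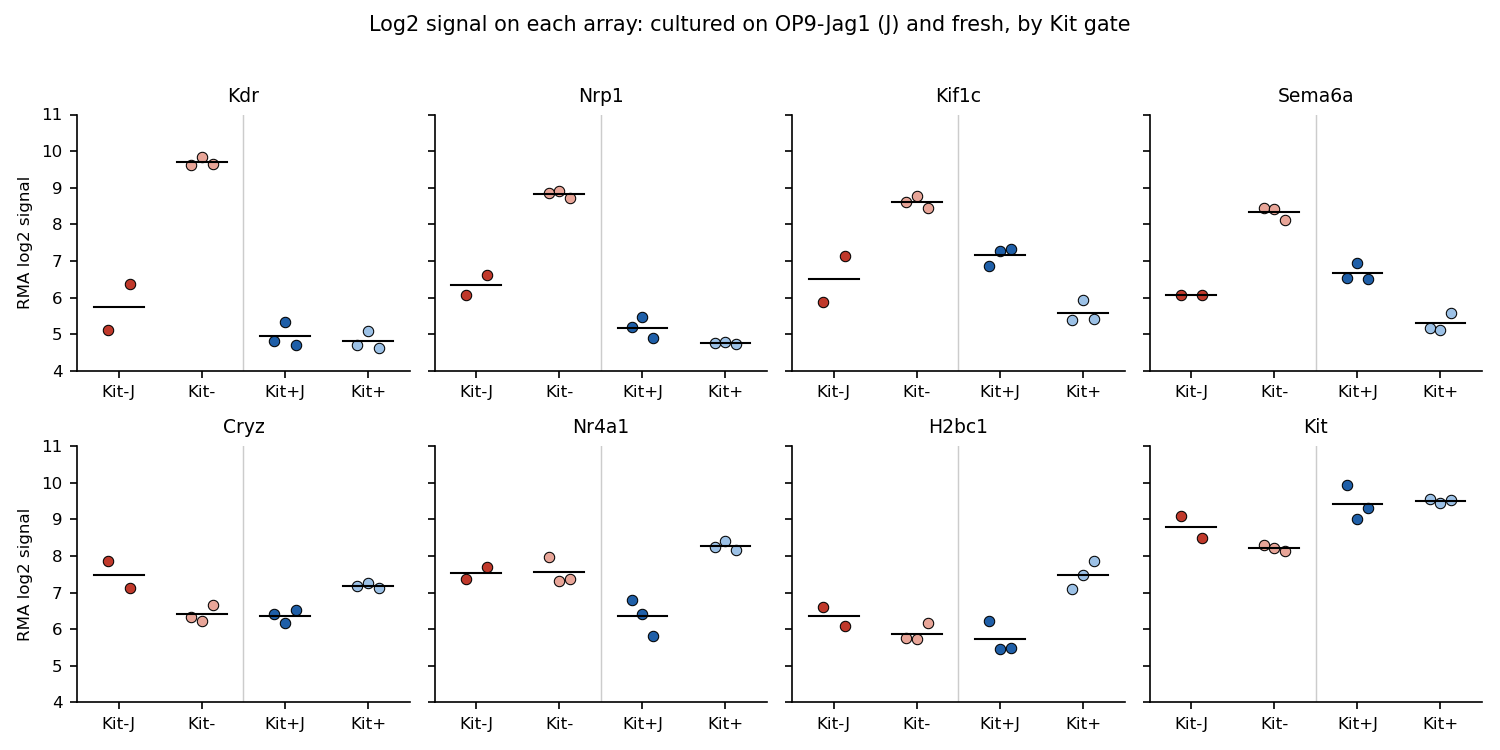
RMA log2 signal (vertical axis) of 8 genes on each of the 11 arrays, by group; points are arrays and lines group means. Kdr and Nrp1 fall to between 5.11 and 6.61 on the Kit-J arrays while the Kit+ groups stay low, Kif1c and Sema6a are higher in Kit+J than in Kit+, Cryz is higher in Kit-J than in Kit-, and for Cryz, Nr4a1 and H2bc1 the Kit+J arrays lie below those of Kit+.

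Endothelial identity genes come first of the 28 gene lists described here. All lists were chosen with earlier results of these data known. The shares of all genes given beside them are a scale and no test of enrichment. Of 40 measured, 8 were called lower and 0 higher (0.557% and 0.0251% of all genes), 29 were lower and 0 higher at an unadjusted p under 0.05 (5.45% and 3.99% of all genes), and the median was −1.46 against 0.07 for all genes. The 8 were Aplnr (apelin receptor), Clec14a (an endothelial C-type lectin), Flt1 and Kdr (VEGF receptors), Nrp1, Ptprb (the phosphatase VE-PTP), She (an SH2 adaptor) and Tek (angiopoietin receptor). Aplnr measured 6.07 and 7.04 on Kit-J, against 10.30, 10.48 and 10.52 on Kit-, while Kit+J stood at 5.34, 5.87 and 4.84, against 5.25, 5.39 and 5.82 on Kit+. Its difference was −3.74 (SE 0.63, limma adjusted p = 0.0157), and Kit-J lay between Kit- and the Kit+ groups. Clec14a measured 4.28 and 4.28 on Kit-J, against 6.95, 7.05 and 7.16 on Kit-, while Kit+J read 4.40, 4.61 and 4.15, against 4.13, 4.35 and 4.24 on Kit+. Here Kit-J had reached the level of the Kit+ groups, and the difference was −2.92 (SE 0.36, limma adjusted p = 0.00213). Tek, chosen after its values were seen, measured 5.75 and 6.19 on Kit-J, against 8.39, 8.95 and 8.47 on Kit-, while Kit+J gave 4.72, 4.54 and 4.44, against 5.198, 5.08 and 5.12 on Kit+. Kit-J lay below Kit- and Kit+J below Kit+ without overlap, by unequal amounts (difference −2.07, SE 0.28, limma adjusted p = 0.00401).

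Genes of VEGF and Tie signalling were lower in 5 of 21, with a median of −0.69. The arterial genes were lower in 5 of 19, with a median of −0.87, and the venous and lymphatic genes in 2 of 10, with a median of −1.97. Of all genes, 0.557% were called lower. The lists overlap: Nrp1 is both an endothelial and an arterial gene, and Aplnr both an endothelial and a venous one. The arterial calls were Nrp1, Hey2 (a Notch-regulated repressor), Efnb2 (the arterial ephrin), and Gja4 and Gja5 (arterial connexins). The venous calls were Aplnr and Nr2f2, the transcription factor that specifies veins. Nr2f2 had a difference of −1.86 (SE 0.29, limma adjusted p = 0.0107) and Gja5, chosen after its values were seen, one of −2.62 (SE 0.49, limma adjusted p = 0.029).

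A pair of endothelial surface genes differed in how far they followed. Cdh5, VE-cadherin, measured 8.15 and 8.29 on Kit-J, against 10.999, 11.10 and 11.04 on Kit-, while Kit+J stood at 4.68, 6.33 and 6.17, against 5.65, 6.31 and 6.55 on Kit+. It stayed above every Kit+J and Kit+ array on Kit-J. Pecam1, which encodes the sorted antigen CD31, measured 9.08 and 8.98 on Kit-J, against 9.98, 9.92 and 10.02 on Kit-, while Kit+J read 9.92, 9.17 and 9.74, against 9.13, 8.96 and 9.17 on Kit+. All 4 groups thus carried high Pecam1 signal, the antigen of the gate. Neither gene was called between the gates, although in both the Kit-J arrays lay below all Kit- arrays. For Pecam1 they lay within the range of the Kit+ arrays. Both genes were chosen after their values were seen.

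Some of the 111 genes lay on opposite sides of the fresh levels in the gates. The fresh levels came from the earlier series, so a shift between series could move a gene into or out of this class. For 29 of them, both Kit-J arrays lay below all Kit- arrays and all Kit+J arrays lay above all Kit+ arrays (0.702% of all genes, and 5.67% for Kit+J above all Kit+ alone). Both moves add to the negative difference by which the 111 were called, so nothing is read from the comparison with all genes. Their median was −1.32 in Kit- cells and 0.64 in Kit+ cells, against −2.15 and 0.07 in the other 82. The smallest limma adjusted p of the 29 within Kit+ cells was 0.0835, so that none of these gains was called on its own. Kif1c, a kinesin that carries vesicles and integrins along microtubules, was 1 of the 29. It measured 5.87 and 7.14 on Kit-J, against 8.61, 8.78 and 8.45 on Kit-, while Kit+J gave 6.87, 7.26 and 7.33, against 5.38, 5.94 and 5.41 on Kit+. From a wide gap in fresh cells, the gates came to overlap after culture. The difference was −3.69 (SE 0.44, limma adjusted p = 0.00201), of which −2.11 came from Kit- cells and 1.58 from Kit+ cells. Kif1c has several probe sets, and with their mean in place of the brightest the difference was −2.35 (limma adjusted p = 0.00293). Kif1c was the only one of 29 kinesin motors and adaptors called. Kif1b, a related kinesin, had −1.14 (limma adjusted p = 0.135), and the median of the list was −0.18.

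Sema6a, a transmembrane semaphorin that guides axons and vessels, had the same form. It measured 6.08 and 6.08 on Kit-J, against 8.44, 8.43 and 8.12 on Kit-, while Kit+J stood at 6.55, 6.93 and 6.50, against 5.18, 5.12 and 5.59 on Kit+. After culture Kit-J lay below all Kit+J arrays, the reverse of the fresh order. The difference was −3.62 (SE 0.36, limma adjusted p = 0.000437). Vcan, the matrix proteoglycan versican, had the largest difference of all called genes at −4.18 (SE 0.82, limma adjusted p = 0.0348). It measured 5.54 and 5.99 on Kit-J, against 8.01, 8.11 and 8.60 on Kit-, while Kit+J read 6.46, 5.96 and 6.30, against 4.81, 3.62 and 5.18 on Kit+. Its lowest fresh array, at 3.62, was more than 1 below the other Kit+ arrays, and its call was kept in 2 of the 11 fits that each left out 1 array of the contrast. Kif1c and Sema6a were called in all 11.

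Others of the 29 were chosen after their values were seen. Capn2, the large subunit of m-calpain, measured 6.80 and 8.25 on Kit-J, against 8.68, 8.97 and 8.50 on Kit-, while Kit+J gave 7.32, 8.11 and 8.34, against 5.84, 6.16 and 6.36 on Kit+. Its gain in Kit+ cells, 1.81, was the largest of the 29, and Kit-J and Kit+J overlapped. Peg10, an imprinted retrotransposon-derived gene, measured 9.71 and 9.98 on Kit-J, against 11.16, 11.32 and 11.26 on Kit-, while Kit+J stood at 8.71, 9.03 and 9.41, against 7.87, 8.02 and 8.34 on Kit+. The gap between the gates narrowed from both sides without closing. The difference of Peg10 was −2.37 (SE 0.29, limma adjusted p = 0.00213), and that of Capn2 −3.00 (SE 0.59, limma adjusted p = 0.0325). Igfbp3, which binds insulin-like growth factors, had −3.79 (SE 0.73, limma adjusted p = 0.0316), of which −2.50 came from Kit- and 1.30 from Kit+ cells.

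**Figure D2:**
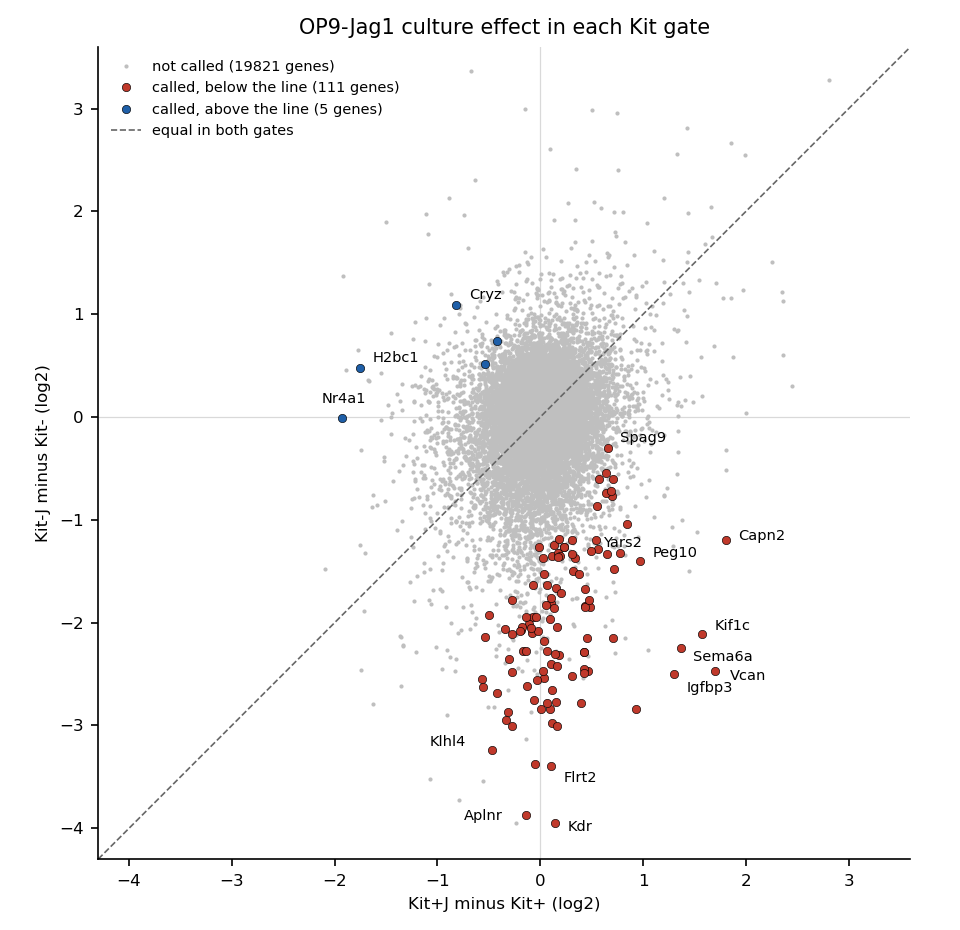
The OP9-Jag1 change in Kit- cells (vertical axis, log2) against that in Kit+ cells (horizontal axis, log2) for the 19937 genes; each point is 1 gene, coloured where the difference between gates was called, and the dashed line is equal change. The 111 called genes below the line lie at a median of −2.04 in Kit- cells and 0.15 in Kit+ cells, with Vcan, Kif1c, Sema6a and Capn2 to the right, and 5 lie above it.

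Guidance genes of the semaphorin, plexin, Flrt and Robo families, which steer axons and vessels, were lower in 6 of 28, against 0.557% of all genes. Their median was −0.85, with −0.75 in Kit- and 0.01 in Kit+ cells. Both Kit-J arrays lay below all Kit- arrays for 23, against 12.8% of all genes. Fresh Kit- arrays exceeded all fresh Kit+ arrays for 24 of the 28, against 10.5% of all genes. The calls were Flrt2, Nrp1, Plxnd1, Robo1, Sema6a and Sema6d. Flrt2, an adhesion protein that binds Unc5 receptors, measured 5.00 and 6.72 on Kit-J, against 9.16, 9.44 and 9.15 on Kit-, while Kit+J read 4.61, 5.86 and 5.48, against 4.97, 5.61 and 5.07 on Kit+. Sema6d, a close relative of Sema6a, measured 5.55 and 6.53 on Kit-J, against 9.50, 9.69 and 9.06 on Kit-, while Kit+J gave 5.74, 5.33 and 5.68, against 5.57, 5.44 and 5.91 on Kit+. In both, the Kit+J and Kit+ arrays overlapped, which for Sema6a they did not. Their differences were −3.50 (SE 0.56, limma adjusted p = 0.0117) and −3.32 (SE 0.44, limma adjusted p = 0.00343). Plxnd1, a semaphorin receptor of endothelium chosen after its values were seen, had −2.28 (SE 0.32, limma adjusted p = 0.00417).

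Adhesion and junction genes were lower in 5 of 28, against 0.557% of all genes, with a median of −0.69. The calls were Cdh2 (N-cadherin), Cdh11 (a mesenchymal cadherin), Itga2 (the α chain of a collagen-binding integrin), Itga9 (an integrin α chain) and Pcdh17 (a protocadherin). Itga2 measured 4.93 and 5.58 on Kit-J, against 8.05, 7.91 and 8.06 on Kit-, while Kit+J stood at 4.68, 5.29 and 5.14, against 5.21, 5.03 and 5.06 on Kit+. Kit-J came to the level of the Kit+ groups or just above it, with a difference of −2.69 (SE 0.36, limma adjusted p = 0.00343). Cdh2 measured 5.47 and 5.05 on Kit-J, against 7.52, 7.55 and 7.93 on Kit-, while Kit+J read 4.92, 5.06 and 5.26, against 4.85, 5.16 and 4.93 on Kit+. It too came close to the Kit+ groups (difference −2.51, SE 0.35, limma adjusted p = 0.00432).

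Basement membrane and matrix genes were lower in 6 of 25, against 0.557% of all genes, with a median of −1.07. Both Kit-J arrays lay below all Kit- arrays for 19, against 12.8% of all genes. The calls were Adamts1 and Adamts9 (secreted proteases), Lama4 and Nid1 (laminin and nidogen chains of basement membrane), and Mmp2 and Mmp14 (a gelatinase and the membrane protease that activates it). Mmp2 measured 6.33 and 6.06 on Kit-J, against 8.29, 8.38 and 8.45 on Kit-, while Kit+J gave 5.90, 6.23 and 5.88, against 6.05, 6.02 and 5.82 on Kit+. The Kit-J arrays came to within the spread of the Kit+ groups or just above it (difference −2.22, SE 0.38, limma adjusted p = 0.0175). Of 26 actin cytoskeleton genes only Cnn2 (calponin) was lower, at −2.83 (SE 0.39, limma adjusted p = 0.00401), and the list's median was −0.75. Myh10, a nonmuscle myosin, just missed the threshold at −1.90 (limma adjusted p = 0.0536). Phldb2, a cortical scaffold, had −3.18 (SE 0.59, limma adjusted p = 0.0269).

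Of 28 Notch pathway genes measured, 3 were lower (10.7%, against 0.557% of all genes) and 0 higher, and the median was 0.06, against 0.07 for all genes. The 3 were the targets Hey2, Efnb2 and Ccnd1 (cyclin D1). Hey2 measured 3.69 and 3.61 on Kit-J, against 5.58, 5.91 and 5.01 on Kit-, while Kit+J stood at 3.43, 3.70 and 3.79, against 3.54, 3.53 and 3.46 on Kit+. Of the 11 arrays only those of Kit- exceeded 5, so the difference (−1.98, SE 0.32, limma adjusted p = 0.0119) lay in a dim range. With all log2 values under 5 set to 5 it was −0.50 (limma adjusted p = 0.616). Efnb2 was brighter, at 6.89 and 7.12 on Kit-J, against 9.02, 9.19 and 8.65 on Kit-, while Kit+J read 6.77, 5.91 and 6.63, against 6.63, 6.60 and 6.30 on Kit+. Its difference was −1.87 (SE 0.38, limma adjusted p = 0.0374), kept in 2 of the 11 fits without 1 array. Ccnd1 had −2.02 (SE 0.41, limma adjusted p = 0.0394), also kept in 2 of 11.

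The Wnt pathway genes were lower in 1 of 28, against 0.557% of all genes. This was Fzd4, a receptor for Wnt and norrin that endothelium uses. It measured 4.70 and 4.41 on Kit-J, against 6.96, 6.86 and 6.72 on Kit-, while Kit+J gave 4.64, 4.81 and 5.14, against 4.23, 4.39 and 4.70 on Kit+. Kit-J reached the Kit+ range (difference −2.72, SE 0.27, limma adjusted p = 0.000437). None of 26 BMP and TGF-β pathway genes was called by limma, with 9 lower at an unadjusted p under 0.05 and a median of −0.39. Bmp2, a ligand, had −1.22 (limma adjusted p = 0.105) and Eng, an endothelial co-receptor, −1.32 (limma adjusted p = 0.123). Of 30 cell cycle and replication genes, 2 were lower, Ccnd1 and Cdkn1c (the inhibitor p57), with a list median of −0.04. Growth factor and imprinted genes were lower in 4 of 15, Cdkn1c, Igf1, Igfbp3 and Mest, against 0.557% of all genes, with a median of −1.11. Igf1 measured 5.48 and 5.94 on Kit-J, against 8.37, 8.50 and 8.80 on Kit-, while Kit+J stood at 5.70, 4.55 and 5.22, against 5.01, 5.09 and 5.08 on Kit+. Igf1, the growth factor also present as protein in the medium, thus lay at or near the Kit+ level on Kit-J (difference −2.94, SE 0.49, limma adjusted p = 0.0155). Mest, an imprinted hydrolase chosen after its values were seen, had −3.17 (SE 0.65, limma adjusted p = 0.0392), called in 1 of the 11 fits without 1 array.

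**Figure D3:**
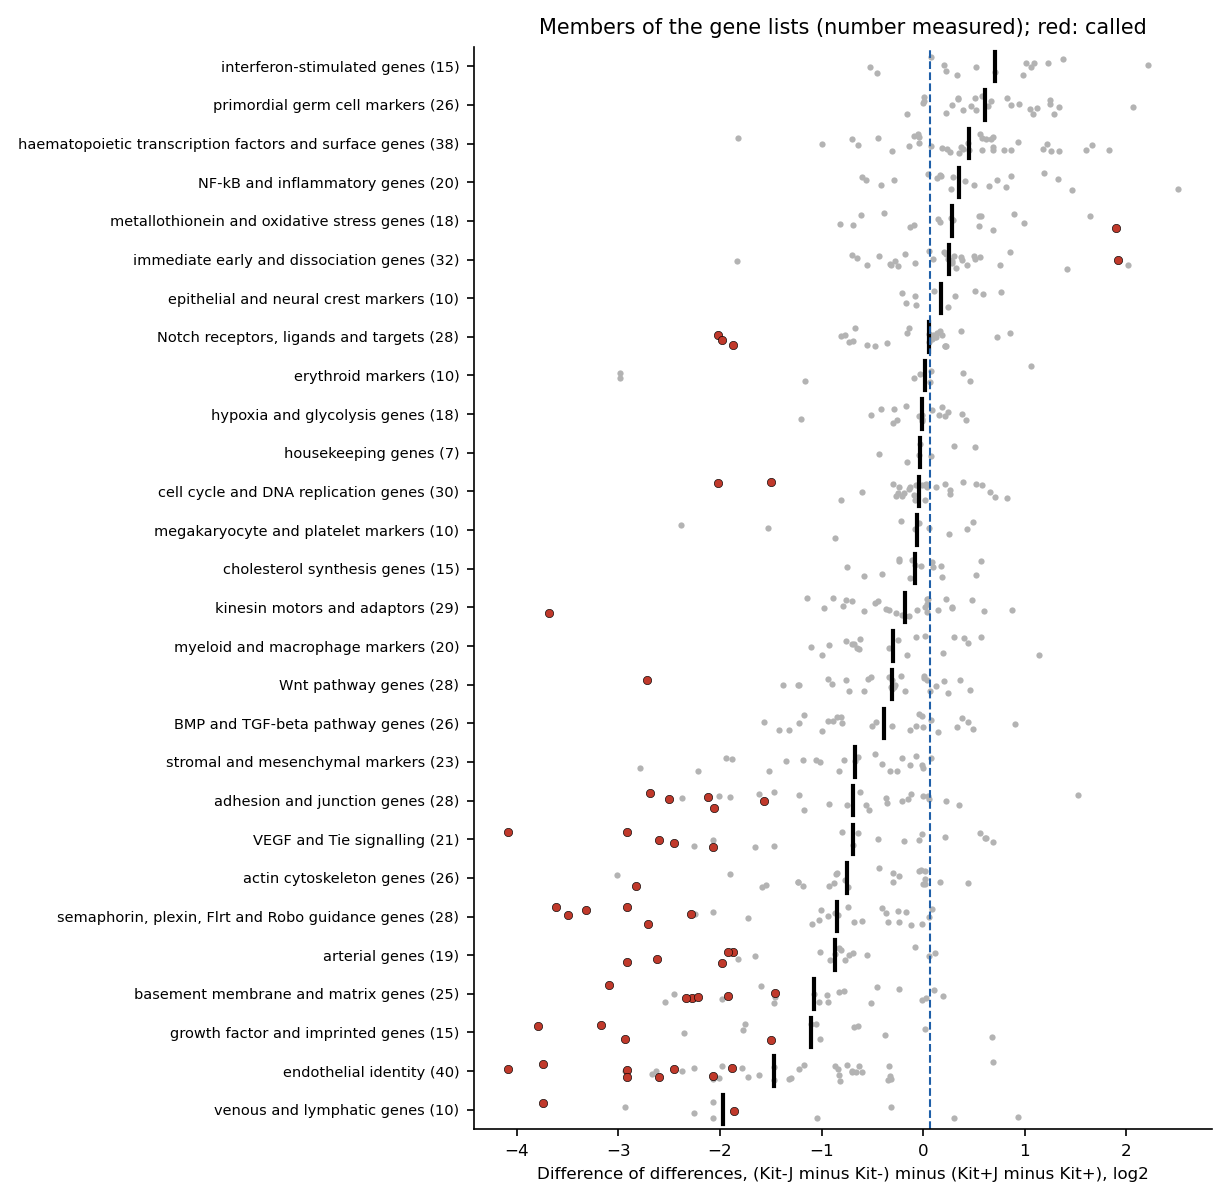
Difference of differences (horizontal axis, log2) of the measured members of the 28 gene lists (rows, in the order of their medians); each point is 1 gene, red where called, the black tick is the list's median and the blue dashed line the median of all genes, 0.07. Venous and lymphatic (−1.97) and endothelial identity genes (−1.46) lie farthest left, interferon-stimulated (0.71) and germ cell genes (0.61) farthest right.

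The 111 genes were largely those in which fresh Kit- cells exceeded fresh Kit+ cells. In Kit- against Kit+, where 644 genes (3.23%) were called and 532 (2.67%) were higher in Kit-, 105 of the 111 were among the 532. Both contrasts use the same fresh arrays with opposite sign, so this count is no independent measurement. Of the fresh gap, Kit-J lost a median of 84.5% over the 105 genes (40.7 to 229%), less than 50% in 4 and more than 100% in 18. The genes were called on a difference that holds this loss, and loss and gap share the Kit- arrays. Nothing is therefore read from these shares. On the Kit-J and Kit+J arrays alone, which leave out the fresh arrays, the median difference over the 111 was 0.17. The 111 were called with these same cultured arrays, so nothing is read from that median. Between Kit-J and Kit+J, 18 genes of the whole table (0.0903%) were called, 7 higher (0.0351%) and 11 lower (0.0552%) in Kit-J, with 5 of the 111 among them. These 5 were chosen after their values were seen. Tek and Klhl4, a kelch-like protein, remained higher in Kit-J than in Kit+J, by 1.40 (limma adjusted p = 0.0206) and 1.99 (limma adjusted p = 0.0127). Klhl4 measured 5.54 and 5.77 on Kit-J, against 8.99, 8.90 and 8.78 on Kit-, while Kit+J read 3.45, 3.99 and 3.54, against 4.13, 4.21 and 4.05 on Kit+.

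The other 3, Yars2 (the mitochondrial tyrosyl-tRNA synthetase), Ppm1d (a phosphatase of the p53 response) and Fam114a2, were not called between the fresh gates, and after culture Kit-J fell short of Kit+J. Yars2 measured 5.58 and 6.06 on Kit-J, against 7.18, 7.04 and 7.17 on Kit-, while Kit+J gave 7.48, 7.70 and 8.05, against 7.34, 6.98 and 7.44 on Kit+. Kit-J lay alone below the other 3 groups, and its difference from Kit+J was −1.92 (limma adjusted p = 0.00728). Ppm1d measured 6.68 and 6.82 on Kit-J, against 7.15, 7.45 and 7.48 on Kit-, while Kit+J stood at 7.94, 8.31 and 8.16, against 7.09, 7.63 and 7.56 on Kit+. It parted in both directions, with a difference of differences of −1.32 (SE 0.26, limma adjusted p = 0.0366).

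The 5 genes in the other direction were Cryz, Nr4a1, H2bc1, Gm5784 and 9430060I03Rik. Cryz, the quinone reductase zeta-crystallin, measured 7.87 and 7.12 on Kit-J, against 6.32, 6.23 and 6.66 on Kit-, while Kit+J read 6.42, 6.17 and 6.52, against 7.18, 7.26 and 7.12 on Kit+. The cultured and fresh arrays did not overlap in either gate, and the fresh order of the gates was reversed. The difference was 1.91 (SE 0.29, limma adjusted p = 0.00999), with 1.09 from Kit- and −0.82 from Kit+ cells. It was called in all 11 fits without 1 array, but not with scaling to housekeeping genes (limma adjusted p = 0.0647). In the list of 18 metallothionein and oxidative stress genes it was the 1 called, and the list's median was 0.29.

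Nr4a1, an immediate early nuclear receptor, and H2bc1, a testis-type histone H2B gene, were higher in the contrast through Kit+ cells, where both were called lower on their own. Nr4a1 measured 7.38 and 7.71 on Kit-J, against 7.96, 7.33 and 7.36 on Kit-, while Kit+J gave 6.80, 6.41 and 5.82, against 8.25, 8.41 and 8.16 on Kit+. Kit-J and Kit- overlapped and all Kit+J arrays were below all Kit+ arrays. The difference was 1.92 (SE 0.38, limma adjusted p = 0.0359), kept in 2 of the 11 fits without 1 array. H2bc1 measured 6.61 and 6.09 on Kit-J, against 5.76, 5.72 and 6.16 on Kit-, while Kit+J stood at 6.24, 5.46 and 5.48, against 7.11, 7.47 and 7.86 on Kit+. Kit+J lay below Kit+ without overlap, and the difference was 2.23 (SE 0.37, limma adjusted p = 0.0155). Nr4a1 was the only one of 32 immediate early and dissociation genes called, and its relative Nr4a2 had 2.01 without a call (limma adjusted p = 0.278). Gm5784 and 9430060I03Rik, chosen after their values were seen, had 1.05 and 1.17 (limma adjusted p = 0.0374 and 0.0388).

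None of the 38 haematopoietic transcription factors and surface genes was called by limma. Their median was 0.45, with 1 lower and 2 higher at an unadjusted p under 0.05. Runx1, the factor needed for blood to arise from endothelium, measured 7.82 and 8.78 on Kit-J, against 7.82, 7.74 and 7.70 on Kit-, while Kit+J read 7.85, 7.67 and 7.74, against 8.31, 8.28 and 7.84 on Kit+. Its first Kit-J array lay level with Kit- and its second above every other array of the 4 groups, with a difference of 0.93 (SE 0.77, limma adjusted p = 0.768). Runx1 was chosen after its values were seen. Mecom, a stem cell factor also used by endothelium, had −1.83 (limma adjusted p = 0.154), but −0.70 with the mean of its probe sets (limma adjusted p = 0.565), and Hlf, a stem cell factor, 1.18 (limma adjusted p = 0.228).

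Markers of primordial germ cells, which also carry Kit and settle in the gonadal part of the AGM, mostly had differences above 0. Of 26 measured, none was called by limma, 2 were higher at an unadjusted p under 0.05, 25 lay above 0, as did 57.9% of all genes, the median was 0.61 against 0.07 for all genes, and both Kit-J arrays lay above all Kit- arrays for 20, against 19.7% of all genes. Fresh Kit+ arrays exceeded all fresh Kit- arrays for 21 of the 26, against 16% of all genes. The mean of the 26 relative to Kit- was 0.96 and 0.69 on Kit-J and −0.06 to 0.05 on Kit-, while Kit+J gave 1.51, 1.01 and 1.22, against 1.28, 0.94 and 1.12 on Kit+. Prdm14, a germ cell regulator, measured 8.12 and 7.86 on Kit-J, against 5.56, 5.64 and 5.52 on Kit-, while Kit+J stood at 7.67, 8.04 and 7.95, against 8.01, 7.29 and 7.32 on Kit+. Pou5f1, the pluripotency factor Oct4, measured 9.44 and 9.12 on Kit-J, against 7.62, 8.23 and 8.64 on Kit-, while Kit+J read 9.86, 9.90 and 9.08, against 9.67, 9.63 and 10.20 on Kit+. Prdm14 stood at or near the Kit+ level on Kit-J. The Kit-J arrays of Pou5f1 lay between those of Kit- and Kit+, within the range of Kit+J. The difference of Prdm14, 2.07, was not called (limma adjusted p = 0.379), but was with only the 4 groups fitted (limma adjusted p = 0.00928). Ddx4, the germ cell helicase Vasa, measured 6.10 and 5.57 on Kit-J, against 5.83, 5.72 and 5.68 on Kit-, while Kit+J gave 7.88, 7.37 and 7.66, against 7.75, 7.36 and 7.54 on Kit+, and so stayed at the Kit- level. Their part in the results on endothelial genes was not tested. Pou5f1 and Ddx4 were chosen after their values were seen.

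Markers of other cells and states did not pass the test in the contrast. Stromal and mesenchymal markers had 0 called by limma of 23, with 5 lower at an unadjusted p under 0.05 and a median of −0.67. Their mean relative to Kit- was −0.78 and −0.58 on Kit-J and −0.17 to 0.13 on Kit-, with −0.82, −0.50 and −1.10 on Kit+J, against −0.99 to −0.96 on Kit+. Pdgfra, a receptor of mesenchyme, had −2.22 (limma adjusted p = 0.104, but 0.0258 with only the 4 groups fitted). The erythroid (10 genes), myeloid (20), megakaryocyte (10), and epithelial and neural crest markers (10) had medians of 0.02, −0.29, −0.06 and 0.18, and at an unadjusted p under 0.05 limma gave 3, 0, 2 and 0 genes in these lists. Hba-x, an embryonic globin of primitive red cells, had −2.99 (limma adjusted p = 0.15, but 0.0299 with only the 4 groups fitted). Interferon-stimulated genes had no call by limma and 1 gene at an unadjusted p under 0.05. Their median was 0.71 over 15, with 14 above all Kit- arrays on both Kit-J arrays, against 19.7% of all genes. For 5 of the 15 all Kit+J arrays lay above all Kit+ arrays, against 5.67% of all genes. Their mean relative to Kit- was 1.41 and 1.21 on Kit-J and −0.20 to 0.13 on Kit-, while Kit+J stood at 0.68, 0.40 and 0.70, against −0.12 to 0.02 on Kit+. Usp18, an interferon-induced protease, measured 6.68 and 6.22 on Kit-J, against 4.88, 4.84 and 4.92 on Kit-, and its change in Kit- cells was called (1.57, limma adjusted p = 0.0397) while its difference between gates was not (1.10, limma adjusted p = 0.521). NF-kB (median 0.35), hypoxia (−0.01), cholesterol (−0.07) and housekeeping genes (−0.03, 7 of 8 measured) had no call by limma, and 1, 1, 0 and 0 genes at an unadjusted p under 0.05. The part of these lists in the results was not tested.

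**Figure D4:**
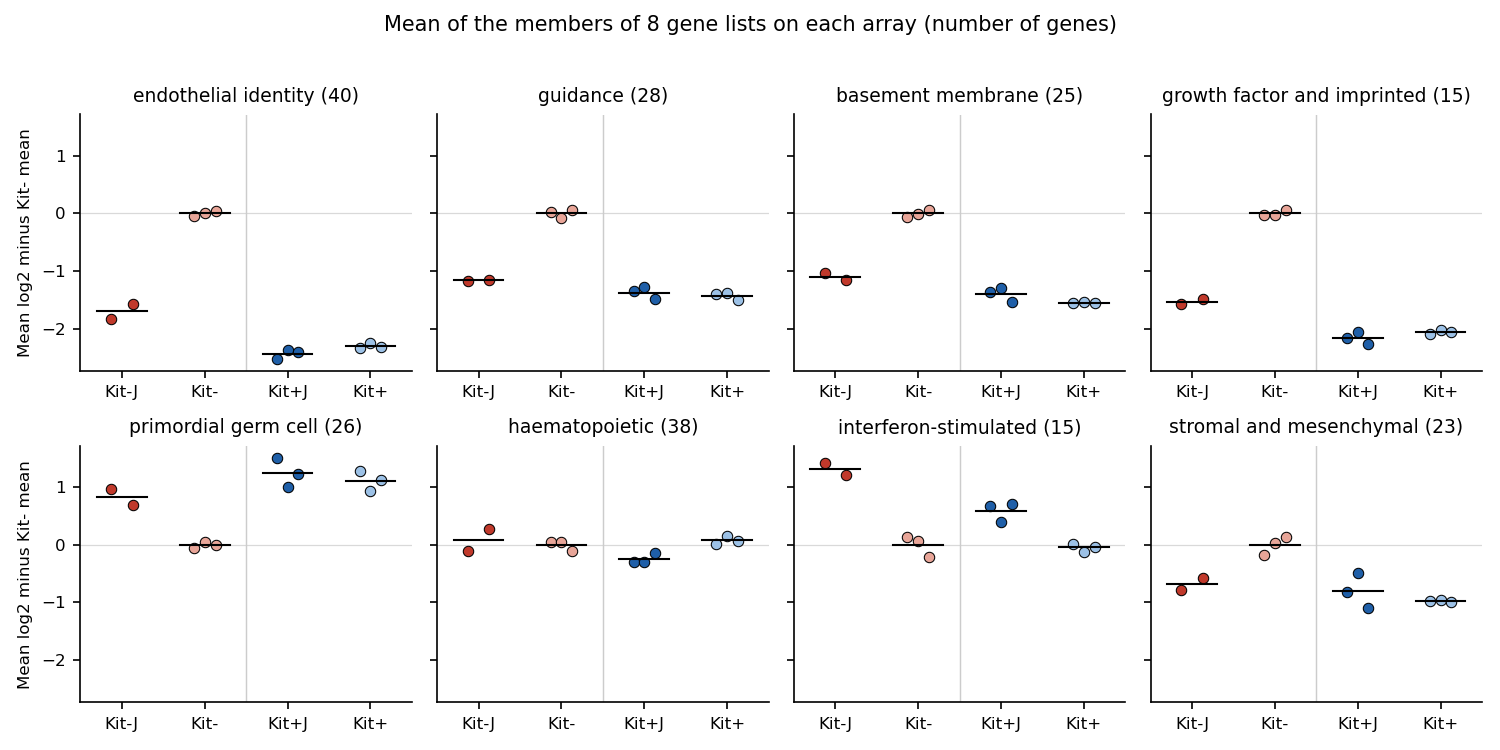
Mean log2 value of the members of 8 gene lists, array by array over the 11 arrays, relative to the mean of the fresh Kit- arrays (vertical axis, log2), by group; each point is 1 array. The endothelial mean is −1.83 and −1.57 on the Kit-J arrays and −2.53 to −2.36 on Kit+J, close to Kit+ at −2.33 to −2.25, and the germ cell mean is 0.96 and 0.69 on Kit-J.

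OP9-Dll4 stroma, which presents a Delta ligand in the same medium, gave a second difference of differences from 6 other cultured arrays and the same fresh arrays. No gene (0%) was called, and 1790 were under an unadjusted p of 0.05. With limma array weights 54 were called, and 3 with a replicate block within each culture set. Because both contrasts share the fresh arrays, their values are given side by side. Kdr had −4.09 on OP9-Jag1 and −1.12 on OP9-Dll4, Kif1c −3.69 and −0.76, Sema6a −3.62 and −0.36, Itga2 −2.69 and 0.55, and Cryz 1.91 and 0.64. Vcan had −4.18 and −2.09, Igfbp3 −3.79 and −1.81, Aplnr −3.74 and −1.80, and Nrp1 −2.91 and −1.78. Their OP9-Dll4 values were more negative than those of the genes just named, but less negative than their own on OP9-Jag1. Hba-x, called in neither contrast, had −2.99 and −4.35. The median over the 111 genes was −2.07 on OP9-Jag1 and −0.21 on OP9-Dll4. The 111 were called by their OP9-Jag1 values, so nothing is read from the gap between these medians.

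The fresh arrays drop out when the stromas are compared directly, as Kit-J minus Kit-D less Kit+J minus Kit+D. In that contrast 395 genes (1.98%) were called, 271 lower (1.36%) and 124 higher (0.622%), and 77 of the 111 were among them. Equal replicate numbers paired the Kit-D and Kit+D arrays but neither other pair of groups, and with a replicate block the contrast had 260 calls (number as a fixed term), 188 (number within each culture set) or 281 (the same as a random block). Both contrasts use the Kit-J and Kit+J arrays. Kdr measured 5.11 and 6.38 on Kit-J, against 9.95, 9.83 and 10.26 on Kit-D, while Kit+J read 4.81, 5.33 and 4.71, against 5.47, 6.38 and 6.89 on Kit+D. Kit-J was far below Kit-D, and Kit+J was below Kit+D by less (difference −2.97, limma adjusted p = 0.0121). Fzd4 measured 4.70 and 4.41 on Kit-J, against 7.80, 7.37 and 7.94 on Kit-D, while Kit+J gave 4.64, 4.81 and 5.14, against 5.06, 5.22 and 4.94 on Kit+D. It differed between the stromas in Kit- cells without overlap, and overlapped in Kit+ cells (difference −2.94, limma adjusted p = 0.000467). Kif1c had −2.92 (limma adjusted p = 0.00648), Sema6a −3.26 (limma adjusted p = 0.00154) and Cryz 1.26 (limma adjusted p = 0.0421). Nrp1 (−1.13, limma adjusted p = 0.0556), Aplnr (−1.94, limma adjusted p = 0.136), Hey2 (−1.15, limma adjusted p = 0.0803) and Vcan (−2.09, limma adjusted p = 0.216) were not called there. For 1 Kit-D and 1 Kit+D array a record line also names the opposite Kit population.

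**Figure D5:**
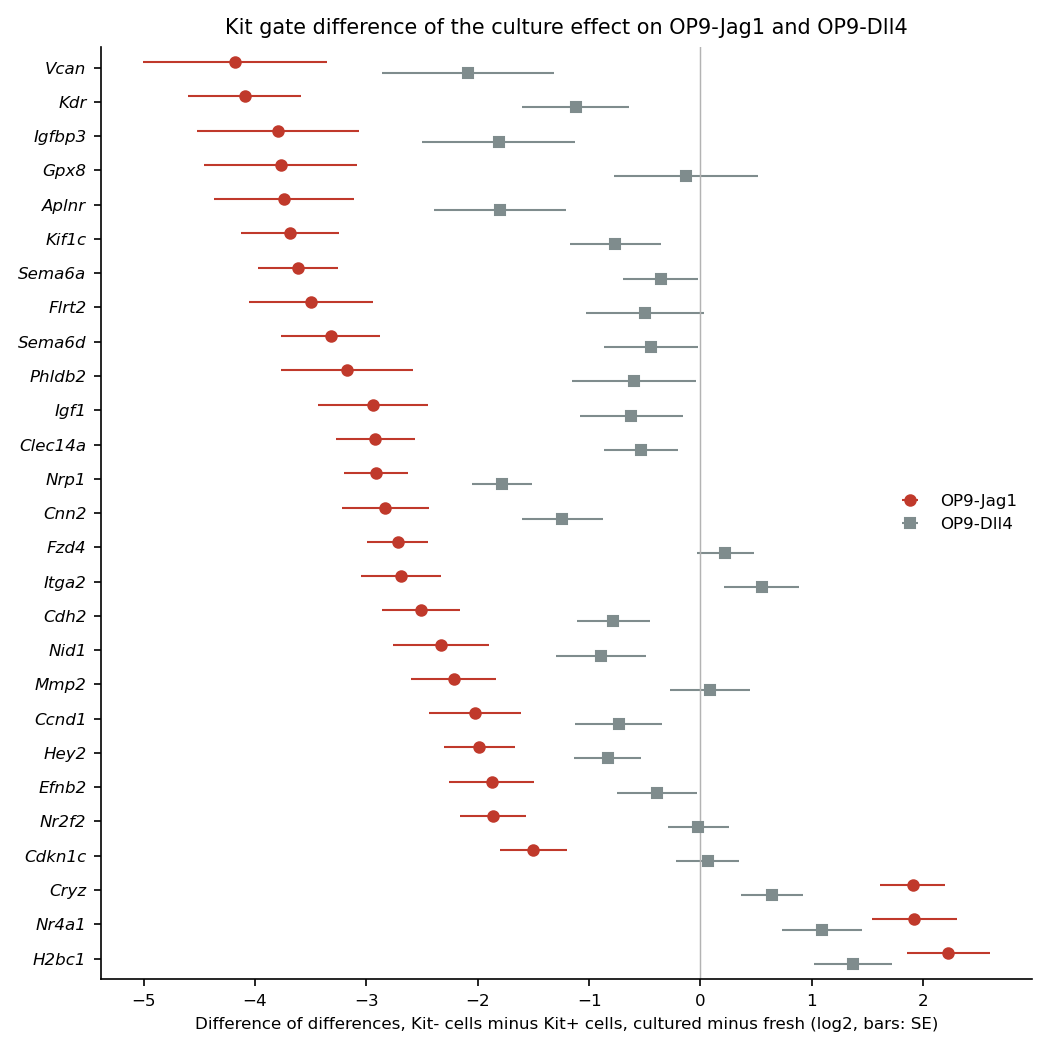
Difference of differences (horizontal axis, log2) of 27 called genes (rows), on OP9-Jag1 (red circles) and on OP9-Dll4 (grey squares); bars are standard errors, and both use the same fresh arrays. Itga2 is at −2.69 on OP9-Jag1 and 0.55 on OP9-Dll4, Kdr at −4.09 and −1.12, and Nrp1 at −2.91 and −1.78. The 27 genes were called by their OP9-Jag1 values, so nothing is read from the larger size of these.

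The count of called genes rested on few arrays. Without the first Kit-J array it was 38, of which 29 were among the 116, and without the second 297, of which 93 were. Leaving out a Kit- array gave 50 to 66 and leaving out a Kit+ array 57 to 73, and of the Kit+J arrays the third gave 67. All 116 genes kept their sign in each of these 11 fits and 25 kept their call, among them Fzd4, Nrp1, Sema6a, Kif1c, Clec14a, Kdr, Cdh2, Sema6d, Itga2, Tek, Flrt2 and Cryz. Of the named genes lost without the first Kit-J array, Aplnr had a limma adjusted p of 0.117, Igf1 0.106, Hey2 0.0592, Mmp2 0.0634, Nr2f2 0.0735 and H2bc1 0.108. Vcan, Igfbp3, Gpx8, Phldb2, Nid1, Ccnd1, Cdkn1c, Efnb2 and Nr4a1 were kept in at most 4 of the 11. Gpx8, an endoplasmic reticulum peroxidase, had a difference of −3.77 (SE 0.68, limma adjusted p = 0.0238).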

How the data were processed

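RNA of 17 samples in 6 groups was hybridised to Affymetrix Mouse Gene 1.0 ST arrays after amplification of a few nanograms. The authors deposited log2 values made by RMA, whose version, like any processing beyond it, is not given in the sources used here. Of 34760 probe sets, 21640 name 1 gene symbol, 1321 several and 11799 none. Each gene took the probe set with the highest mean, which gave 19937 genes, 954 of them with several sets, and 0 symbols changed when 21553 probe sets were matched to RefSeq by Entrez number.

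Group means over all 17 arrays were fitted with limma 3.58.1 in R 4.3.3, with Benjamini-Hochberg adjustment over all 19937 genes and calls at an adjusted p under 0.05. The number of arrays limits the precision, and replicates came from separate sorting experiments. Members and gene lists were chosen with earlier results of these data known, so lists carry no test of their own. Named genes were the 10 largest differences in each direction among called genes (all where fewer were called), leaving out provisional symbols and small RNA genes, then Kdr, Kif1c, Cryz and Kit, and the 2 members of each list with the smallest p. Alternatives changed the samples fitted, the variance prior, filters on dim genes, scaling, array weights, the probe set rule, a replicate block and each array left out. Deviations from the group means correlated between arrays of equal replicate number at 0.462, 0.179 and 0.289 for Kit-D and Kit+D, which by a threshold of 0.1 in every pair makes them paired, but at −0.114 and −0.263 for Kit-J and Kit+J and at 0.006 to 0.065 for Kit- and Kit+. Between unequal numbers, the first Kit-J array correlated at 0.263 with the second Kit+J array and at −0.194 with the third. The second Kit-J array correlated at 0.114 with the first Kit+J array and at 0.194 with the third. The deviations of 2 Kit-J arrays mirror each other, and which arrays share a culture is not given. A floor at 5 was added after the data were seen. Figures were drawn with matplotlib 3.10.9 in Python 3.11.15. The fits were tested on simulated data.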

Additional observations from a re-analysis of the deposited data

Results flagged for a closer look

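For 27 of the named genes the OP9-Jag1 change differed between Kit- and Kit+ cells by limma's test of the difference itself, at an adjusted p under 0.05. Values are Kit- change minus Kit+ change on the log2 scale. Surface receptors and guidance genes were Kdr at −4.09, Aplnr at −3.74, Sema6a at −3.62, Flrt2 at −3.50, Sema6d at −3.32, Clec14a at −2.92, Nrp1 at −2.91 and Fzd4 at −2.72. Matrix and adhesion genes were Vcan at −4.18, Itga2 at −2.69, Cdh2 at −2.51, Nid1 at −2.33 and Mmp2 at −2.22. Cytoskeletal genes were Kif1c at −3.69, Phldb2 at −3.18 and Cnn2 at −2.83. Growth and cell cycle genes were Igfbp3 at −3.79, Igf1 at −2.94, Ccnd1 at −2.02 and Cdkn1c at −1.50. Vessel type and Notch target genes were Hey2 at −1.98, Efnb2 at −1.87 and Nr2f2 at −1.86, and the peroxidase Gpx8 was at −3.77. H2bc1 at 2.23, Nr4a1 at 1.92 and Cryz at 1.91 had the opposite sign.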

How the results depend on the processing

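No named gene's difference between gates changed sign in the alternatives run. Of 653 alternative values of the 27 named called genes, 525 kept the call and 128 lost it. Of 783 of the other named genes, 773 stayed uncalled and 10 passed. The 116 calls between gates became 175 with only the 4 groups fitted (17 higher and 158 lower, 95 of the 116 among them), 25 of the 7321 genes with a mean of at least 6 in both fresh groups (40 of the 116 were among the 7321, and 25 of these kept their call), and 71 with all probe sets. Kit-J against Kit- gave 169 with that mean filter and 270 with array weights, in place of 426. Kit+J against Kit+, with 0 higher and 4 lower, gave 14 with 4 groups (9 higher and 5 lower), 9 with array weights (5 and 4), 10 with all probe sets (1 and 9) and 6 with housekeeping scaling (4 and 2). The OP9-Dll4 contrast gave 1 with housekeeping scaling, 1 with quantile normalization, 54 with array weights and 5 with all probe sets, in place of 0. The contrast between stromas gave 216 with the mean filter, 94 with housekeeping scaling and 161 with array weights, in place of 395. Housekeeping scaling moved its median over all genes to 0.13 and that of the OP9-Dll4 contrast, 0.01, to −0.10, and the mean filter moved that of the OP9-Jag1 contrast, 0.07, to −0.05.

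Equal replicate numbers paired the Kit-D with the Kit+D arrays, but neither Kit-J with Kit+J nor Kit- with Kit+. The study left out a Kit-J sample, so the Kit-J numbers may not follow those of Kit+J. The blocks may thus join arrays of different sorting experiments. With the replicate block the calls between gates were 98 (number as a fixed term), 111 (number within culture set) and 88 (number within culture set as a random block). The block by number gave 260 in the contrast between stromas, and the block within culture set 188 there and 3 in the OP9-Dll4 contrast. It moved no other count of calls by over 1.5 times, and as a fixed term within culture set it could not be fitted for Kit-J against Kit- or Kit+J against Kit+.

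With each array left out in turn, the calls between gates ran from 38 to 297, Kit-J against Kit- from 105 to 942, Kit+J against Kit+ from 0 to 18, the OP9-Dll4 contrast from 0 to 5 and the contrast between stromas from 91 to 811. The first Kit-J array gave the lowest and the second the highest value of Kit-J against Kit- and of both contrasts between gates that use OP9-Jag1. The contrast between stromas also moved without the second Kit-D (144), the third Kit-D (116), the third Kit+J (209), the second Kit+D (218) and the third Kit+D array (763). Kit-J against Kit- moved without a Kit- array (265, 272 and 247). Kit+J against Kit+ was 0 without the second or the third Kit+ array, 2 without the first Kit+ or the second Kit+J, 7 without the third Kit+J and 18 without the first. The cause of these moves was not tested, except that each such fit has fewer arrays. Dim values limit the rest: the lower quartile of all values was 4.42, and with values under 5 set to 5 the calls between gates were 83, of which 66 were among the 116.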

Other observations

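Probe sets with no symbol, or with several, belong to no named gene. Fitted with all 34760 probe sets, 6 of the 11799 without a symbol were called lower and 5 higher between the gates, and of the 1321 with several symbols 0 were lower and 1 was higher, while of the 21640 with 1 symbol 56 were lower and 3 higher.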
